A study of Mus musculus with 6 samples.

Results

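The N2/S2-coded pair is replicate 3 of a small RNA-sequencing experiment on MPC5 cells, and was set against the other libraries of the same experiment. MPC5 is a conditionally immortalised mouse podocyte line; podocytes are the epithelial cells that wrap the capillaries of the kidney's filter. The experiment held 6 libraries, 3 from cells transfected with small interfering RNA (siRNA) against Mettl3, the gene of the enzyme that methylates adenosines of messenger RNA (m6A), and 3 from cells given scrambled siRNA. The pair was chosen by the form of the codes in the sample titles: knockdown replicate 3 is coded S2-2 and control replicate 3 is coded N2-1, while the other 4 libraries carry codes that begin with HG (HG-m3-1 and HG-m3-1-2 for knockdown replicates 1 and 2, HG-blank-H2-1 and HG-blank-H2-2 for control replicates 1 and 2). The pair is therefore 2 of 6 libraries, 1 of each siRNA, and no expression value entered the choice.

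All 6 libraries share the same labels apart from the siRNA: MPC5 cells grown at 33 °C with interferon gamma (20 U/ml), kept for 7 days at 37 °C without it to differentiate, exposed to siRNA in lipid reagent for 6 h, and labelled as stimulated with high glucose (30 mM). The labels do not say what N2 and S2 stand for, nor whether replicate 3 was cultured, extracted or sequenced apart from the rest, so what set the pair apart is unlabelled. All libraries come from a single cell line, and the design text calls the replicates biological; nothing else says that the cultures were separate, so p-values measure the spread between these libraries, which may be technical. No 2 libraries held the same values: log2(FPKM + 1) correlated at 0.985 within the pair, 0.978 to 0.984 among the HG-coded libraries and 0.964 to 0.9701 between them. The comparison asks how far, and in which genes, the replicate 3 cultures stood apart from the other cultures of the same 2 conditions, with knockdown as a covariate. Throughout, a pair of values belongs to knockdown replicate 3 and control replicate 3, and a set of 4 values to knockdown replicates 1 and 2 and control replicates 1 and 2.

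The deposited values are FPKM, read fragments per gene corrected for transcript length and library size, which allow levels of genes of different length to be compared. Their sum was 173721 to 176526 in every library, 74 to 118 genes per library were listed at 0, and the read depth is unknown. Mettl3 measured 3.90 FPKM in knockdown replicate 3 and 5.75 FPKM in control replicate 3, 3.68 and 3.85 FPKM in knockdown replicates 1 and 2, and 5.87 and 6.34 FPKM in control replicates 1 and 2. The knockdown libraries were below the control libraries of their own code form in both cases, and Mettl3 did not pass the test between the code forms (log2 difference -0.02, SE 0.09, adjusted p = 0.911). Of the podocyte list, the table held 17 of 35 genes, of which 14 passed the filter. Actn4, an actin crosslinker of the foot process, held 104 to 113 FPKM and Cd2ap, a slit diaphragm adaptor, 11.5 to 15.4 FPKM over the 6 libraries. Wt1 (0.372 to 0.714 FPKM) and Synpo (0.328 to 1.25 FPKM) were below the filter, and Nphs1 and Podxl, which define a mature podocyte, were not among the listed genes. The mesangial and fibroblast list was well expressed in all 6 libraries, with 14 of 22 genes tested and sums of 9346 and 9034 FPKM in the N2/S2-coded pair, against 6519, 6667, 6392 and 6165 FPKM in the HG-coded libraries. These sums include the collagen genes Col1a1, Col1a2 and Col3a1, described below. The median log2 difference of the list was 0.12, with 9 members above 0 and 5 below. Of the immune list 1 of 19 genes was in the table (Csf1r, at 0.121 and 0.299 FPKM in the pair and 0.943, 0.838, 1.097 and 1.03 FPKM in the HG-coded libraries, below the filter), of the endothelial list 2 of 15 and of the tubule list 2 of 20.

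A cultured cell that adheres and secretes matrix switches between broad programmes: it builds collagen fibres and a contractile actin network, it copies its DNA and divides, it makes lipid for new membrane, it secretes and answers cytokines, and it adjusts translation when amino acids or protein folding are limiting. Each programme has known control points. Mitotic genes share a promoter element, the cell cycle genes homology region, read by the DREAM and MuvB complexes; genes of the integrated stress response carry an amino acid response element read by ATF4; inflammatory genes such as Sod2 are read by NF-kappaB. In podocytes, mesangial cells and fibroblasts alike, a collagen-rich, Acta2-positive state is the textbook sign of a myofibroblast-like programme.

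The pair stood apart from the other 4 libraries across the transcriptome. Of 8047 genes tested, 1513 passed an adjusted p of 0.05 (limma with Benjamini-Hochberg adjustment; 18.8% of the genes tested), 501 of them higher in the pair (6.23%) and 1012 lower (12.6%). Most of these differences were modest: the median size was 0.485 on the log2 scale, and 92 genes differed by at least 1, with 38 higher and 54 lower. The groups did not overlap in 3471 genes (43.1% of those tested), 1236 with the pair higher (15.4%) and 2235 with the pair lower (27.8%). The genes named below for the largest differences were picked among called genes without overlap. For them, a lack of overlap is a condition of the choice and not a further result. The split between the directions depended on the scaling. The median gene lay 0.064 lower in the pair on the log2 scale; with library medians set equal 734 genes were called higher and 685 lower, and with quantile normalization 636 higher and 734 lower.

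**Figure D1:**
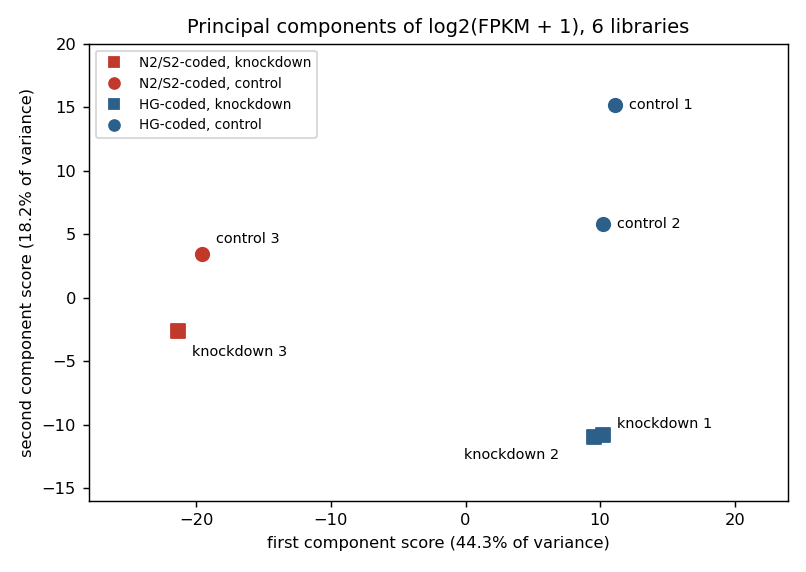
Scores of the 6 libraries on the first and second principal components of log2(FPKM + 1) over the genes tested (axes in score units, with the share of variance); red marks the N2/S2-coded pair, blue the HG-coded libraries, squares knockdown and circles control. The pair scores -21.4 and -19.6 on the first component (44.3% of variance), against 9.53 to 11.1 for the other 4; knockdown and control separate on the second (18.2%) among the HG-coded libraries.

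On the first principal component, which carried 44.3% of the variance, knockdown replicate 3 scored -21.4 and control replicate 3 scored -19.6, against 10.2, 9.53, 11.1 and 10.2 for the HG-coded libraries. The 2 libraries of the pair lay side by side although they differ in siRNA, and the second component carried 18.2%. The same offset could be measured separately in each siRNA arm, knockdown replicate 3 against knockdown replicates 1 and 2 and control replicate 3 against control replicates 1 and 2, with no library in common. Across genes the 2 offsets correlated at Pearson r = 0.558 (8047 genes, which are not independent replicates). The sign was the same in both for 73.2% of genes tested and for 67% of genes not called. None of the 1513 called genes had opposite signs, but a call rests on the mean of the 2 offsets. That absence was therefore nearly fixed by the selection. Each arm alone has a single library on one side: within the knockdown arm 225 genes passed, within the control arm 0 passed (1641 at an unadjusted p under 0.05). Without knockdown replicate 3 the count of called genes was 362, without control replicate 3 it was 343, and without knockdown replicate 1 it was 923; these fits assume that a lone library varies like the others. With the replicate number as a block it was 1197. Counts given below for a gene list with a library left out are to be read beside these lower counts over all genes.

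**Figure D2:**
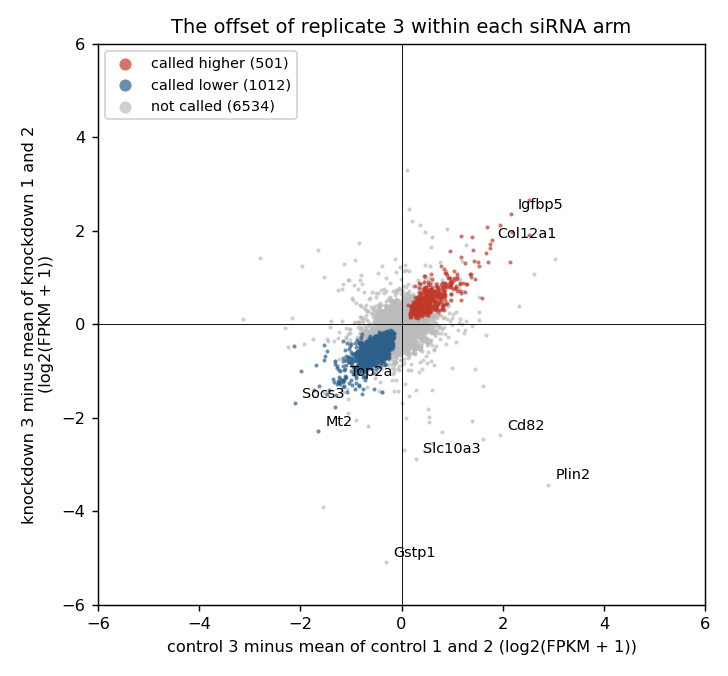
Each point is a gene; the vertical axis is knockdown replicate 3 minus the mean of knockdown replicates 1 and 2, the horizontal axis control replicate 3 minus the mean of control replicates 1 and 2, both on log2(FPKM + 1). Genes called higher in the pair (red, 501) and lower (blue, 1012) lie along the diagonal, while Plin2, Gstp1, Cd82 and Slc10a3 lie far below the horizontal zero line with control offsets above or near 0.

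Collagen genes rose in the pair. Of 18 fibrillar and associated collagens, 13 were tested. Of these 11 rose in the pair and 1, Col27a1, fell, 92.3% called against 18.8% of all genes tested. The median log2 difference was 0.92, against -0.064 over all genes. In bulk libraries such as these, a change in the number of cells of one kind and a change in RNA per cell cannot be told apart. Collagens made up 3.47% and 3.35% of all FPKM in the pair, against 2.01%, 2.03%, 1.62% and 1.67% in the HG-coded libraries. The number called higher was 10 without knockdown replicate 3 and 10 without control replicate 3.

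Col12a1 (chr9:79598991-79718831, minus strand on GRCm38) encodes a collagen that coats fibrils and links them to the matrix around them. It measured 148 and 158 FPKM in the N2/S2-coded pair, against 43.7, 44.9, 45.95 and 46.1 FPKM in the HG-coded libraries (log2 difference 1.74, SE 0.05, adjusted p = 0.000108). The means were 153 ± 6.55 FPKM in the pair (SD, n = 2) and 45.2 ± 1.12 FPKM in the HG-coded libraries (SD, n = 4), so both libraries of the pair lay above every other library and the replicate spread was small beside the gap. The genes of fibril-forming type I collagen, Col1a1 and Col1a2, rose together with that of type III. Col1a1 measured 3285 and 3113 FPKM in the N2/S2-coded pair, against 1938, 1951, 1464 and 1601 FPKM in the HG-coded libraries (log2 difference 0.89, SE 0.07, adjusted p = 0.00127). Col3a1 measured 794 and 673, against 364, 382, 267 and 254 FPKM (log2 difference 1.23, SE 0.07, adjusted p = 0.000619). In both genes the lowest of the pair lay above the highest HG-coded library. The 3 tested chains of type VI collagen, a beaded microfibril around cells, rose by a similar size, with log2 differences of Col6a1 (1.05), Col6a2 (0.99) and Col6a3 (0.96), and the type V chains that set fibril diameter followed at Col5a1 (0.48), Col5a2 (0.72) and Col5a3 (0.92). Calls lost with a library left out were those of Col5a3 with either library of the pair left out (adjusted p 0.0608 to 0.107), and of Col27a1 with any 1 of the 6 libraries left out (adjusted p 0.0642 to 0.192).

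Small leucine-rich proteoglycans, which bind collagen fibrils, gave the largest matrix differences. Aspn, encoding asporin, a binder of TGF-beta and collagen, measured 61.1 and 53.05 FPKM in the N2/S2-coded pair, against 14.9, 11.6, 12.9 and 13.3 FPKM in the HG-coded libraries (log2 difference 2.03, SE 0.11, adjusted p = 0.000486). Ogn, its neighbour on chromosome 13 encoding osteoglycin, measured 47.3 and 39.6, against 10.7, 10.02, 11.6 and 11.7 FPKM (log2 difference 1.88, SE 0.10, adjusted p = 0.000525). In both genes the pair lay above all 4 HG-coded libraries. Tnn, encoding tenascin-W, showed the same pattern at 14.01 and 14.3, against 3.48, 4.28, 3.699 and 3.45 FPKM (log2 difference 1.69, SE 0.10, adjusted p = 0.000643). Over the list of 28 matrix glycoproteins and proteoglycans 9 rose and 3 fell, 42.9% called against 18.8% of all genes tested, with a median of 0.13. Those that rose include Sparc, a collagen-binding glycoprotein (0.75), the thrombospondins Thbs1 (0.51) and Thbs2 (0.60), and the heparan sulphate proteoglycan Gpc1 (0.87). Those that fell were the fibrillin gene Fbn1 (-0.47), Tgfbi (-0.49) and Spp1, encoding osteopontin (-0.77). When libraries were left out in turn, the call was lost for Fbn1 and Spp1 without control replicate 3 (adjusted p 0.0518 to 0.0554). Counts for the list were 6 higher and 3 lower without knockdown replicate 3, and 7 higher and 1 lower without control replicate 3.

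Basement membrane genes moved in both directions. Of 10 tested, the nidogens Nid1 (0.67) and Nid2 (0.75), which bridge laminin and collagen IV, rose with perlecan, Hspg2 (0.52), while agrin, Agrn (-0.80), and the laminin chains Lama4 (-0.77) and Lamc1 (-0.26) fell. Nid1 measured 58.8 and 48.1 FPKM in the N2/S2-coded pair, against 35.9, 38.5, 28.5 and 30.2 FPKM in the HG-coded libraries and Lama4 measured 0.787 and 1.14, against 2.48, 2.48, 2.23 and 2.2 FPKM. Of the 10 tested, 60% were called, against 18.8% of all genes tested, and the median was 0.01. Basement membrane counts were 2 higher and 0 lower without knockdown replicate 3, and 2 higher and 2 lower without control replicate 3. With a library left out, the threshold was missed by Agrn and Lama4 without knockdown replicate 3 (adjusted p 0.0527 to 0.0944), Hspg2 with either library of the pair left out (adjusted p 0.0582 to 0.0645), and Lamc1 with any 1 of the 6 libraries left out (adjusted p 0.0708 to 0.236).

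Of 22 enzymes that process collagen, 6 rose and 3 fell, 40.9% called against 18.8% of all genes tested. A larger share rose under other scalings (12 with equal medians and 10 with quantile normalization). Lox, the lysyl oxidase that crosslinks collagen, measured 96.2 and 74.03 FPKM in the N2/S2-coded pair, against 66.8, 67.4, 35.2 and 39.4 FPKM in the HG-coded libraries (log2 difference 0.74, SE 0.11, adjusted p = 0.00789), while its relatives Loxl1 (-0.41) and Loxl3 (-0.45) fell. Fkbp10, a collagen chaperone of the endoplasmic reticulum (0.57), and Bmp1, the procollagen C-proteinase (0.41), rose. The collagen chaperone Serpinh1 and the prolyl hydroxylase subunits P4ha1, P4ha2 and P4hb did not pass, with log2 differences of -0.15, 0.12, -0.04 and -0.04. Among 22 matrix proteases and inhibitors 3 rose and 3 fell, 27.3% called against 18.8% of all genes tested. Adamts1, which cleaves proteoglycans, measured 30.4 and 31.5, against 10.7, 12.2, 9.65 and 8.34 FPKM (log2 difference 1.52, SE 0.11, adjusted p = 0.00121), and Serpine2, protease nexin-1, measured 6.63 and 7.098, against 11.98, 11.6, 15.97 and 14.4 FPKM (log2 difference -0.87, SE 0.09, adjusted p = 0.00291). No longer called with a library left out were Lox without control replicate 3 (adjusted p = 0.0527), Loxl3 without knockdown replicate 3 (adjusted p = 0.0784), and Loxl1 and Bmp1 with either library of the pair left out (adjusted p 0.0629 to 0.134). Of the processing enzymes, those called were 3 higher and 0 lower without knockdown replicate 3, and 1 higher and 1 lower without control replicate 3. Leaving out knockdown replicate 1 gave 3 higher. Of the proteases and inhibitors they were 2 higher and 1 lower with either library of the pair left out.

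Genes of bone morphogenetic protein (BMP) and TGF-beta signalling moved in both directions. The gene of the secreted BMP antagonist gremlin 1, Grem1, measured 131 and 155 FPKM in the N2/S2-coded pair, against 80.5, 81.7, 99.3 and 98.7 FPKM in the HG-coded libraries (log2 difference 0.66, SE 0.04, adjusted p = 0.000908). The BMP ligand gene Bmp2 fell at 9.96 and 7.47, against 16.9, 17.4, 16.8 and 19.02 FPKM (log2 difference -0.94, SE 0.11, adjusted p = 0.00435), and so did the BMP target Id1 at 2.56 and 2.49, against 5.67, 4.21, 5.07 and 5.87 FPKM (log2 difference -0.81, SE 0.13, adjusted p = 0.0106). In the TGF-beta branch, the ligand gene Tgfb3 (-0.54), the co-receptor gene Tgfbr3 (-0.81) and the inhibitory Smad7 (-0.66) fell, the activin subunit gene Inhba (0.74) rose, and the ligand gene Tgfb1 (0.04), the receptor genes Tgfbr1 (0.03) and Tgfbr2 (-0.05) and the mediators Smad2 (0.16), Smad3 (0.17) and Smad4 (-0.05) did not pass. Over the 25 tested members 4 rose and 5 fell, 36% called against 18.8% of all genes tested, with a median of 0.05. Signalling genes called were 2 higher and 4 lower without knockdown replicate 3, and 3 higher and 3 lower without control replicate 3. Calls that did not hold without a given library were those of Smad7 without control replicate 3 (adjusted p = 0.0992), of Inhba without knockdown replicate 3 (adjusted p = 0.0755), and of Id1 with either library of the pair left out (adjusted p 0.0755 to 0.11).

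Contractile genes rose in part. Acta2 (chr19:34241090-34255336, minus strand on GRCm38), encoding smooth muscle alpha-actin, measured 58.8 and 56.8 FPKM in the N2/S2-coded pair, against 15.3, 16.7, 14.5 and 17.3 FPKM in the HG-coded libraries, means of 57.8 ± 1.45 FPKM in the pair (SD, n = 2) and 15.95 ± 1.29 FPKM in the HG-coded libraries (SD, n = 4) (log2 difference 1.80, SE 0.09, adjusted p = 0.000383). Tagln, encoding the actin-binding transgelin, measured 40.7 and 39.1, against 8.45, 12.9, 15.4 and 13.4 FPKM (log2 difference 1.62, SE 0.18, adjusted p = 0.00355). Neither gene overlapped between the groups. The intermediate filament gene Vim (0.62), the actin crosslinker Flna (0.59), Smtn (0.57), the non-muscle myosin heavy chain Myh9 (0.30) and Actg2 (0.81) rose by less. Of 21 contractile genes tested 8 rose and 1, the smooth muscle myosin gene Myh11 (-0.68), fell, 42.9% called against 18.8% of all genes tested. The tropomyosin genes Tpm1 (-0.02) and Tpm2 (0.00), Cald1 (0.08), Vcl (-0.14) and Des (0.09) did not pass, and the list median was 0.19. Calls also depended on single libraries, those of Tagln without knockdown replicate 3 (adjusted p = 0.05), of Smtn, Myh9 and Actg2 with either library of the pair left out (adjusted p 0.0558 to 0.121), and of Myh11 without knockdown replicate 3, control replicate 3, knockdown replicate 1 or knockdown replicate 2 (adjusted p 0.0522 to 0.164). The contractile counts were 5 higher and 0 lower without knockdown replicate 3, and 4 higher and 1 lower without control replicate 3.

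These rises stood beside the mesangial and fibroblast markers, of which 14 were tested and 42.9% called, against 18.8% of all genes tested. The 4 that rose were Acta2, Col3a1, Col1a2 and Col1a1, all of which also belong to the lists above. None of the other markers passed as higher: Pdgfrb, the receptor of mesangial cells and pericytes, measured 28.9 and 30.7 FPKM in the N2/S2-coded pair, against 34.9, 34.05, 36.4 and 38.5 FPKM in the HG-coded libraries (log2 difference -0.26, SE 0.06, adjusted p = 0.0245), Twist1 measured 67.6 and 68.9, against 88.7, 97.7, 94.2 and 95.2 FPKM (log2 difference -0.45, SE 0.06, adjusted p = 0.00445), and Pdgfra (-0.29), Prrx1 (0.10), Fap (0.15), Des (0.09) and S100a4 (0.17) did not pass. Calls lost with a library left out were those of Twist1 with either library of the pair left out (adjusted p 0.0534 to 0.0544), and of Pdgfrb with any library but control replicate 1 left out (adjusted p 0.054 to 0.163). The podocyte list held 1 gene that rose, Robo2 (0.24), and 2 that fell, the slit diaphragm gene Kirrel (-0.52) and the integrin gene Itga3 (-0.52), of 14 tested. That is 21.4% called, near the 18.8% of all genes tested, with a median of -0.02. The list summed to 730 and 722 FPKM in the N2/S2-coded pair, against 747, 761, 748 and 754 FPKM in the HG-coded libraries. Podocyte genes called were 0 higher and 0 lower without knockdown replicate 3, and 0 higher and 1 lower without control replicate 3. Mesangial and fibroblast genes called were 4 higher and 0 lower with either library of the pair left out. When libraries were left out in turn, the call was lost for Kirrel without knockdown replicate 3 (adjusted p = 0.0836), Itga3 with either library of the pair left out (adjusted p 0.0506 to 0.0884), and Robo2 with any 1 of the 6 libraries left out (adjusted p 0.0667 to 0.226). Whether the share of cells of another type differed between the cultures was not tested.

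The insulin-like growth factor (IGF) system contained the largest rise among the genes named. Igfbp5 (chr1:72857932-72874884, minus strand on GRCm38), encoding a secreted IGF-binding protein that also binds matrix, measured 49.1 and 48.8 FPKM in the N2/S2-coded pair, against 8.71, 8.79, 9.86 and 10.4 FPKM in the HG-coded libraries (log2 difference 2.26, SE 0.07, adjusted p = 0.000179). Its means were 48.9 ± 0.146 FPKM in the pair (SD, n = 2) and 9.45 ± 0.844 FPKM in the HG-coded libraries (SD, n = 4). Of 9 tested IGF genes 4 rose and 0 fell, 44.4% called higher against 6.23% of all genes tested. Beside Igfbp5, those that rose were Igfbp7 (0.83), Igfbp6 (0.61) and the signalling adaptor Irs1 (0.63). The receptor genes Igf1r (-0.21) and Igf2r (0.18) did not pass. The rises numbered 2 without knockdown replicate 3 and 2 without control replicate 3. With a library left out, the threshold was missed by Irs1 without control replicate 3 (adjusted p = 0.056), Igfbp7 without knockdown replicate 3 (adjusted p = 0.115), and Igfbp6 with any library but knockdown replicate 2 left out (adjusted p 0.0572 to 0.296). Other genes with large rises were Osr2, a zinc-finger transcription factor gene (9.35 and 12.9, against 1.83, 1.701, 1.51 and 1.31 FPKM), Cavin2, encoding a caveolar coat protein (20.6 and 16.1, against 4.63, 4.28, 2.72 and 2.77 FPKM), and Cd248, encoding endosialin, a surface protein of stromal cells (8.89 and 8.44, against 1.86, 3.12, 1.78 and 2.14 FPKM). In each of these the lowest value of the pair was above the highest HG-coded value, which the rule that picked them required.

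**Figure D3:**
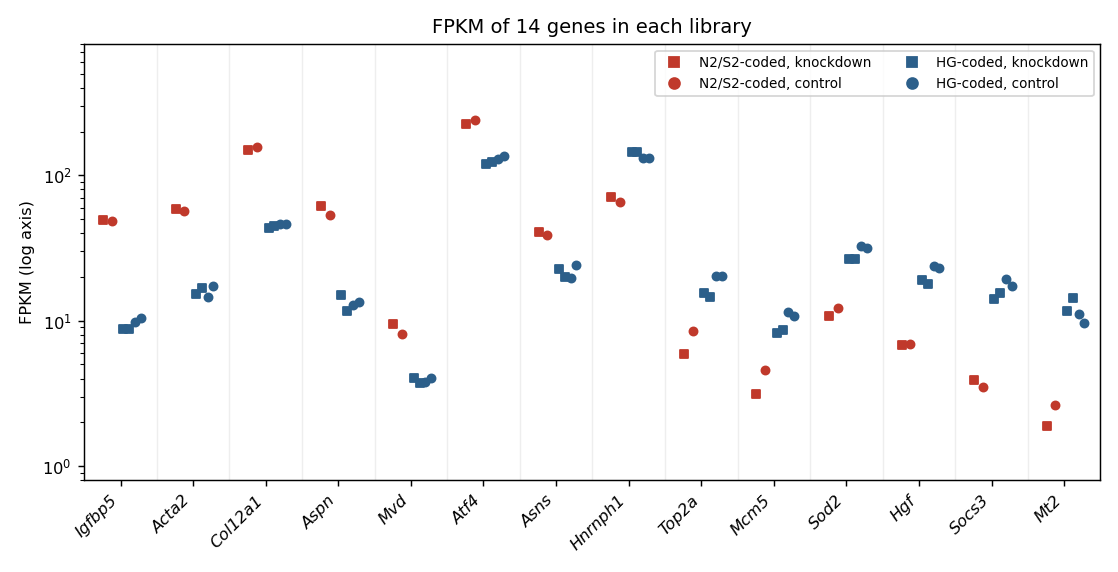
FPKM on a log axis of 14 genes in every library; red points are the N2/S2-coded pair, blue points the HG-coded libraries, squares knockdown and circles control. In each gene shown the pair lies wholly above (Igfbp5 to Asns) or wholly below (Hnrnph1 to Mt2) the 4 HG-coded libraries.

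Most genes of cell division fell. Of 35 mitosis genes tested 31 fell and 0 rose, with a median log2 difference of -0.88, and of 33 DNA replication genes 22 fell and 0 rose, with a median of -0.59; the background of genes called lower was 12.6%. With knockdown replicate 3 left out, 19 mitosis and 11 replication genes were called lower, and with control replicate 3 left out 18 and 5.

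Top2a (chr11:98992943-99024189, minus strand on GRCm38) encodes topoisomerase II alpha, which untangles chromosomes in G2 and mitosis. It measured 5.902 and 8.56 FPKM in the N2/S2-coded pair, against 15.5, 14.6, 20.3 and 20.4 FPKM in the HG-coded libraries (log2 difference -1.19, SE 0.07, adjusted p = 0.000595), with means of 7.23 ± 1.88 FPKM in the pair (SD, n = 2) and 17.7 ± 3.06 FPKM in the HG-coded libraries (SD, n = 4). Both libraries of the pair lay below all 4 HG-coded libraries, and within each code form the knockdown libraries were lower than the control libraries. The spindle genes Tpx2, which activates Aurora A, and Kif11, a kinesin that pushes the poles apart, measured 2.85 and 3.44, against 7.77, 8.49, 9.15 and 9.92 FPKM and 4.64 and 6.96, against 12.7, 12.4, 15.2 and 15.7 FPKM, with log2 differences of -1.24 and -1.15. The chromosome kinesin gene Kif22 (-1.28), the central spindle kinesin gene Kif20a (-1.26) and the checkpoint kinase gene Bub1 (-0.94) fell by similar amounts. The mitotic drivers fell too: Ccnb2, cyclin B2, measured 1.33 and 4.03, against 6.16, 4.895, 7.495 and 7.81 FPKM (log2 difference -1.13, SE 0.18, adjusted p = 0.008998), Plk1 had a log2 difference of -1.07, and Cdk1, the mitotic kinase, measured 2.68 and 2.78, against 4.17, 4.09, 5.02 and 4.82 FPKM (log2 difference -0.56, SE 0.09, adjusted p = 0.0105). Mki67, the common proliferation marker, measured 0.541 and 0.584, against 1.02, 2.18, 1.59 and 1.53 FPKM and did not pass (log2 difference -0.71, SE 0.19, adjusted p = 0.0513). No longer called with a library left out were Ccnb2 and Plk1 without knockdown replicate 3 (adjusted p 0.0663 to 0.0664), and Cdk1 with either library of the pair left out (adjusted p 0.0623 to 0.106).

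The promoters of these genes are shown because the mitotic members share a short element. The cell cycle genes homology region, searched as TTTGAA on both strands, lay within the 300-base promoter window (250 bases before to 50 after the start site, RefSeq on GRCm38.p6) of 24 of 28 mitosis genes with a window, 85.7%, against 13.1% of 6241 tested genes with one. CCAAT boxes, searched as CCAAT on both strands, also lay in 24 of the 28, against 42.6% of all. Over all genes called lower 18.0% held TTTGAA and 48.6% CCAAT, and over all genes called higher 11.9% held TTTGAA and 51.2% CCAAT. A match describes the letters in the window and is not a measured binding site. Here and below, the share over a gene list counts its members with a window, called or not. In Top2a (chr11:99024140-99024439, minus strand), Cdk1 (chr10:69352863-69353162, minus strand) and Ccnb2 (chr9:70421505-70421804, minus strand), given 5′ to 3′ along the gene, capitals mark each TTTGAA or its reverse complement.
Top2a: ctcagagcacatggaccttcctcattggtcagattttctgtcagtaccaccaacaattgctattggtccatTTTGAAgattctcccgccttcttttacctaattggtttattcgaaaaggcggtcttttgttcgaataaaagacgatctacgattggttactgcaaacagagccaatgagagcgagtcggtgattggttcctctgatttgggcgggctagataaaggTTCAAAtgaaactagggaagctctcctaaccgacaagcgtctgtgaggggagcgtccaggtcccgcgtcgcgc
Cdk1: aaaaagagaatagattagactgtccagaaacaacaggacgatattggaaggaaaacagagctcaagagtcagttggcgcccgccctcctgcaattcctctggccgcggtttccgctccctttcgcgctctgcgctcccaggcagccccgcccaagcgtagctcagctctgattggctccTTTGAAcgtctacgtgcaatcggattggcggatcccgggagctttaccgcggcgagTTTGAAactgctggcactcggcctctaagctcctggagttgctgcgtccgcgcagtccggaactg
Ccnb2: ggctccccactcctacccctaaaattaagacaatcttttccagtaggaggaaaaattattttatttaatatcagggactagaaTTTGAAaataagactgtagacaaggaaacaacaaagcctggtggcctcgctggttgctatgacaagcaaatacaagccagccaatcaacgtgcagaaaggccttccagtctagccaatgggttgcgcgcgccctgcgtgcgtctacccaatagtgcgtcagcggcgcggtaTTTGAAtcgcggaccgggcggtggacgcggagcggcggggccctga
Each of these windows holds 2 matches.

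DNA replication genes were lower in several of their complexes. The 6 subunits of the MCM helicase, which unwinds DNA at the fork, all fell, with log2 differences of Mcm2 (-0.85), Mcm3 (-1.03), Mcm4 (-0.91), Mcm5 (-1.17), Mcm6 (-0.92) and Mcm7 (-0.73). Mcm5 measured 3.13 and 4.55 FPKM in the N2/S2-coded pair, against 8.29, 8.695, 11.6 and 10.8 FPKM in the HG-coded libraries (log2 difference -1.17, SE 0.08, adjusted p = 0.0009403). Both subunits of ribonucleotide reductase, which supplies deoxynucleotides, fell as well, Rrm2 at 6.27 and 8.92, against 15.9, 14.96, 21.6 and 22.3 FPKM (log2 difference -1.19, SE 0.07, adjusted p = 0.000586) and Rrm1 with a log2 difference of -0.69. The polymerase epsilon gene Pole (-0.89) and the sliding clamp gene Pcna (-0.75) followed. Members that did not pass were Ccne2 (-0.58), Tk1 (-0.42), Tyms (-0.22), Dnmt1 (-0.30) and E2f1 (-0.03). Calls that did not hold without a given library were those of Mcm3 and Mcm7 without control replicate 3 (adjusted p 0.0518 to 0.0796), and of Mcm2, Mcm6 and Pcna with either library of the pair left out (adjusted p 0.0517 to 0.127). An E2F site, searched as TTTCGCGC on both strands, lay in 6 of 28 replication promoters (21.4%), against 0.9% of all tested, 1.7% of those called lower and 0.3% of those called higher. The Mcm5 window (chr8:75109259-75109558, plus strand, RefSeq on GRCm38.p6) holds it, in capitals.
Mcm5: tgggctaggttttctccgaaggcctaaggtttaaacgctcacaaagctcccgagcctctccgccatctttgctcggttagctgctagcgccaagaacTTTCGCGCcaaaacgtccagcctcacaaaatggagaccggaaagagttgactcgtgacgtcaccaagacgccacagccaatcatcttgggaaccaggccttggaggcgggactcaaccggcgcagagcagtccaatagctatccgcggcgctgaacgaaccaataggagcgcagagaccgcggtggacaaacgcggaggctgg

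Of 55 replication histone genes tested, whose transcripts are made in S phase, 29 fell and 0 rose, with a median of -0.45. That is 52.7% called lower, against 12.6% of all genes tested. Of these histone genes 12 fell without knockdown replicate 3 and 14 without control replicate 3. Relative to the HG-coded mean the list stood at -0.67 and -0.27 log2 units in knockdown replicate 3 and control replicate 3 (the mitosis list stood at -0.98 and -0.72), and with no knockdown covariate 4 histone genes were called lower. Hist1h2bl measured 23.1 and 34.3, against 43.5, 39.4, 67.6 and 72.5 FPKM (log2 difference -0.91, SE 0.08, adjusted p = 0.00154). Histone genes are near-identical copies and most of their transcripts lack a poly(A) tail; the sources used here do not give how reads were shared among copies, so single histone values are uncertain. Upstream of S phase, 6 of 15 genes for G1 cyclins, their kinases and inhibitors fell and 0 rose, 40% called lower against 12.6% of all genes tested. Among those that fell were the G1 cyclin gene Ccnd1 (-0.40) and the kinase inhibitors Cdkn1b, p27 (-0.30), and Cdkn2c, p18 (-0.51). The count of falls was 2 with equal medians, 3 with quantile normalization, 3 with the replicate block and 3 with no knockdown covariate. It was also 1 without knockdown replicate 3 and 0 without control replicate 3, and 2 or 3 without knockdown replicate 1, control replicate 1 or control replicate 2. Calls also depended on single libraries, those of Cdkn2c with either library of the pair left out (adjusted p 0.0784 to 0.0917), of Cdkn1b without knockdown replicate 3, control replicate 3 or control replicate 2 (adjusted p 0.0551 to 0.147), and of Ccnd1 without knockdown replicate 3, control replicate 3, knockdown replicate 1 or knockdown replicate 2 (adjusted p 0.0617 to 0.208).

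**Figure D4:**
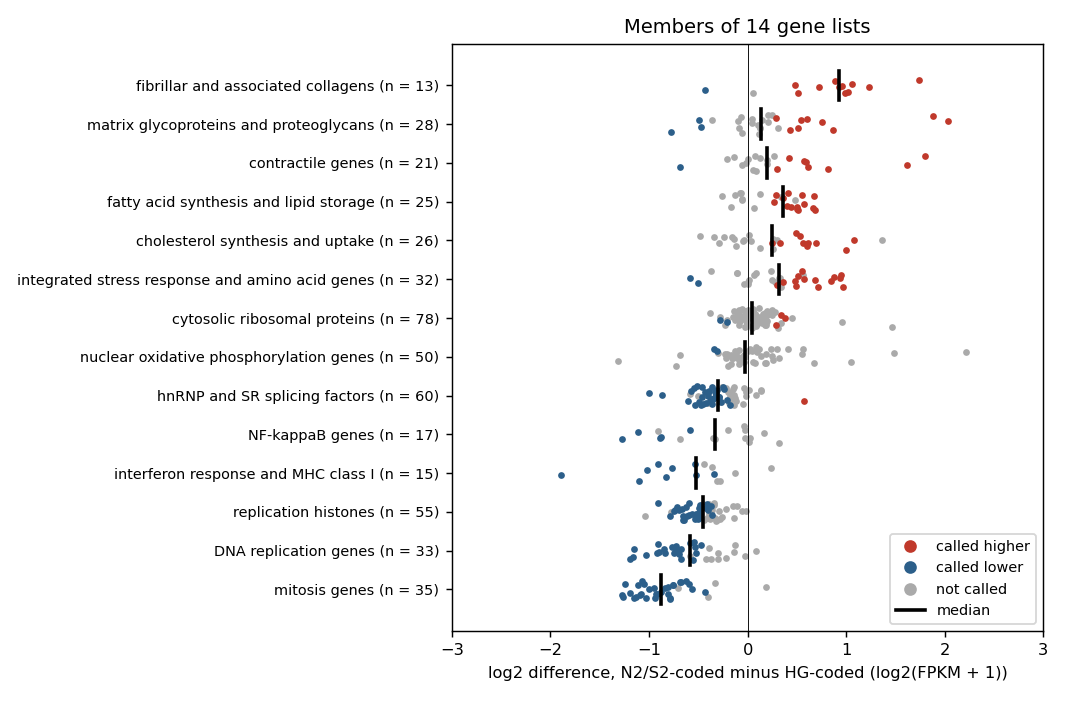
Log2 differences (N2/S2-coded minus HG-coded, log2(FPKM + 1)) of the tested members of 14 gene lists; each point is a gene, red called higher, blue called lower and grey not called, and the black bar is the list median. Collagens, lipid synthesis and integrated stress lists lie mostly right of 0, mitosis, replication, histone, interferon and splicing lists mostly left, and ribosomal and oxidative phosphorylation genes around 0.

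Some genes of the interferon, NF-kappaB and cytokine lists fell in the pair, against a background of 12.6% of genes called lower. Of 15 interferon response and MHC class I genes tested 9 fell and 0 rose, with a median of -0.52; of 17 NF-kappaB genes 5 fell and 0 rose, with a median of -0.33; and of 14 cytokine and chemokine genes 4 fell and 0 rose, with a median of -0.25. Without knockdown replicate 3 the 3 counts were 2, 3 and 3, and without control replicate 3 they were 2, 3 and 2.

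Socs3, a feedback inhibitor of cytokine receptors, measured 3.89 and 3.49 FPKM in the N2/S2-coded pair, against 14.1, 15.5, 19.5 and 17.3 FPKM in the HG-coded libraries (log2 difference -1.90, SE 0.12, adjusted p = 0.000703) and had no overlap between the groups. The guanylate-binding protein gene Gbp2 measured 2.95 and 3.49, against 5.097, 8.88, 9.85 and 9.29 FPKM (log2 difference -1.10, SE 0.19, adjusted p = 0.0133). Of the antigen-processing genes, those of the peptide transporter subunit, Tap2 (-0.77), and of the immunoproteasome subunit, Psmb10 (-0.91), fell, while Tap1 (-0.13) and Tapbp (-0.36) did not pass. Calls lost with a library left out were those of Gbp2, Tap2 and Psmb10 with either library of the pair left out (adjusted p 0.0608 to 0.148).

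Sod2 (chr17:13007839-13018119, plus strand on GRCm38) encodes the mitochondrial manganese superoxide dismutase and is a classical NF-kappaB target. It measured 10.7 and 12.2 FPKM in the N2/S2-coded pair, against 26.4, 26.6, 32.5 and 31.8 FPKM in the HG-coded libraries, means of 11.5 ± 1.06 FPKM in the pair (SD, n = 2) and 29.3 ± 3.27 FPKM in the HG-coded libraries (SD, n = 4) (log2 difference -1.28, SE 0.06, adjusted p = 0.000383). The highest value of the pair lay well below the lowest HG-coded value. Nfkbiz, encoding the nuclear co-activator IkappaB-zeta, measured 1.92 and 3.17, against 4.81, 5.96, 7.87 and 7.99 FPKM (log2 difference -1.11, SE 0.10, adjusted p = 0.002302). The co-activator gene Bcl3 (-0.89) and the acute-phase factors Cebpb (-0.58) and Cebpd (-0.88) fell. The subunit genes themselves did not pass: Rela (-0.03), Relb (-0.04), Nfkb1 (-0.33) and Nfkb2 (0.32), nor did the inhibitor gene Nfkbia (-0.20). When libraries were left out in turn, the call was lost for Cebpb without knockdown replicate 3 (adjusted p = 0.0505), and Bcl3 and Cebpd with either library of the pair left out (adjusted p 0.0829 to 0.171). An NF-kappaB site, searched by its degenerate 10-base consensus on both strands, lay in 7 of 13 promoters of the list (53.8%). The share was 6.2% of all tested, 7.2% of those called lower and 6.1% of those called higher. The list share counts members that were not called, so it does not describe the genes that fell. Called members with the site included Bcl3 and Sod2. It is shown in capitals in the Sod2 window (chr17:13007589-13007888, plus strand, RefSeq on GRCm38.p6), where the consensus matches both strands at the same bases.
Sod2: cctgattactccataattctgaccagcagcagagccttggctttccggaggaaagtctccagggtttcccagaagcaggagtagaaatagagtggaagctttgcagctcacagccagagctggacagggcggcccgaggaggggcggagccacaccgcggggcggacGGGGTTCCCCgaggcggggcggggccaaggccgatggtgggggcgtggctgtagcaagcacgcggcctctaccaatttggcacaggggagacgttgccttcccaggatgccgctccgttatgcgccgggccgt

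Among secreted factors, Hgf, encoding hepatocyte growth factor, measured 6.78 and 6.88 FPKM in the N2/S2-coded pair, against 19.2, 17.9, 23.9 and 22.96 FPKM in the HG-coded libraries (log2 difference -1.48, SE 0.09, adjusted p = 0.000701). Fgf7, keratinocyte growth factor, measured 16.2 and 16.7, against 28.1, 29.2, 37.6 and 39.8 FPKM (log2 difference -0.97, SE 0.10, adjusted p = 0.00274). Both ligands act on epithelial receptors and both had groups that did not overlap. Spp1, osteopontin, measured 364 and 361, against 569.7, 589, 735 and 599 FPKM (log2 difference -0.77, SE 0.09, adjusted p = 0.00396). Cxcl12 (-0.60), Csf1 (-0.30) and Vegfa (-0.01) did not pass. The largest fall among the called genes named was in Mt2, a metallothionein that binds zinc and copper, at 1.88 and 2.61, against 11.7, 14.4, 11.1 and 9.603 FPKM (log2 difference -1.97, SE 0.17, adjusted p = 0.00181). Of 33 antioxidant genes tested 6 fell and 1 rose, 21.2% called, which is near the 18.8% of all genes tested. The list median was -0.05, against -0.064 over all genes. Those that fell were, beside Sod2 and Mt2, the cytosolic Sod1 (-0.32), the ferritin chains Fth1 (-0.36) and Ftl1 (-0.28) and haem oxygenase, Hmox1 (-0.50). Txnip, an inhibitor of thioredoxin, rose (0.49). The peroxiredoxins Prdx1 (0.08) and Prdx6 (0.10) and the regulator Nfe2l2 (-0.05) did not pass. The antioxidant counts were 0 higher and 3 lower without knockdown replicate 3, and 0 higher and 4 lower without control replicate 3. With a library left out, the threshold was missed by Spp1 without control replicate 3 (adjusted p = 0.0554), and Sod1, Ftl1, Hmox1 and Txnip with either library of the pair left out (adjusted p 0.055 to 0.106).

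Genes of lipid synthesis rose in part. Of 25 tested genes for fatty acid synthesis and lipid storage 14 rose and 0 fell, with a median of 0.36, and of 26 genes for cholesterol synthesis and uptake 10 rose and 0 fell, with a median of 0.25; the background of genes called higher was 6.23%. Without knockdown replicate 3 the counts were 7 and 5, and without control replicate 3 they were 5 and 3. Genes of the opposite route, fatty acid oxidation, showed 0 rises and 3 falls of 17. That is 17.6%, against 12.6% of all genes tested called lower and 18.8% called in either direction. The list median was -0.071, near the -0.064 over all genes, with 8 members above 0 and 9 below. The falls numbered 1 without knockdown replicate 3 and 0 without control replicate 3.

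Along the fatty acid route, genes of the cytosolic steps from acetyl-CoA to palmitate rose. Acly, which makes cytosolic acetyl-CoA from citrate, measured 221 and 229.5 FPKM in the N2/S2-coded pair, against 141, 139, 145 and 139 FPKM in the HG-coded libraries (log2 difference 0.67, SE 0.04, adjusted p = 0.000879). Acss2, which makes it from acetate, had a log2 difference of 0.69. Acaca, the carboxylase that commits acetyl-CoA to fatty acids, measured 38.5 and 40.3, against 27.2, 27.03, 26.8 and 28.3 FPKM (log2 difference 0.51, SE 0.06, adjusted p = 0.00335), and Fasn, the synthase, measured 19.6 and 21.7, against 13.3, 12.01, 12.4 and 12.95 FPKM (log2 difference 0.66, SE 0.08, adjusted p = 0.00371). Desaturases followed with Scd1 at 0.55 and Fads2 at 0.57, and the acyl-CoA synthetase gene Acsl3 at 0.51. Srebf1, the usual transcriptional driver of the route, did not pass (2.07 and 2.65, against 2.25, 3.42, 2.505 and 2.05 FPKM, log2 difference -0.07). In oxidation, Cpt1a, the carnitine palmitoyltransferase that admits fatty acids to mitochondria, measured 3.47 and 1.93, against 8.73, 5.79, 8.28 and 8.704 FPKM (log2 difference -1.28, SE 0.22, adjusted p = 0.0132); knockdown replicate 2 was the lowest HG-coded library and the groups did not overlap. No longer called with a library left out were Fasn, Scd1 and Cpt1a without control replicate 3 (adjusted p 0.0544 to 0.107), and Acsl3 without knockdown replicate 3 (adjusted p = 0.0871).

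In the cholesterol route, Mvd, the mevalonate diphosphate decarboxylase, measured 9.53 and 8.099 FPKM in the N2/S2-coded pair, against 4.04, 3.73, 3.82 and 4.03 FPKM in the HG-coded libraries (log2 difference 0.997, SE 0.09, adjusted p = 0.00247). Acat2, the acetyl-CoA acetyltransferase at the start of the route, measured 45.6 and 65.04, against 29, 28.8, 41.1 and 44.4 FPKM (log2 difference 0.62, SE 0.06, adjusted p = 0.002302). The rises were not at every step: Idi1 (0.53), Cyp51 (0.60) and Tm7sf2 (1.08) rose, while Hmgcs1 (-0.34), Insig1 (-0.14) and the regulator Srebf2 (0.30) did not pass. Calls that did not hold without a given library were those of Cyp51 without control replicate 3 (adjusted p = 0.0611), and of Idi1 with either library of the pair left out (adjusted p 0.0531 to 0.108). A sterol regulatory element, searched as TCACNCCAC on both strands, lay in 1 of 19 promoters of the list and in 1.5% of all tested, 2.9% of those called higher and 2.0% of those called lower.

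The integrated stress response, in which phosphorylated eIF2 slows general translation and lets ATF4 be made, was higher in part. Of 32 tested genes for this response and for amino acid supply 14 rose and 2 fell, with a median of 0.32. That is 50% called, against 18.8% of all genes tested. Atf4 (chr15:80255184-80257540, plus strand on GRCm38), encoding its transcription factor, measured 226 and 241 FPKM in the N2/S2-coded pair, against 119, 123, 129 and 135 FPKM in the HG-coded libraries, means of 233 ± 10.9 FPKM in the pair (SD, n = 2) and 127 ± 6.98 FPKM in the HG-coded libraries (SD, n = 4) (log2 difference 0.88, SE 0.04, adjusted p = 0.000465). The pair lay wholly above the other libraries. The genes of the list called higher numbered 4 without knockdown replicate 3, 3 without control replicate 3 and 9 without control replicate 1.

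Several ATF4 targets rose beside it. Asns, asparagine synthetase, measured 40.4 and 38.8 FPKM in the N2/S2-coded pair, against 22.8, 20.1, 19.5 and 24.3 FPKM in the HG-coded libraries (log2 difference 0.85, SE 0.10, adjusted p = 0.00422). Chac1, which degrades glutathione, measured 14.4 and 13.8, against 7.22, 6.38, 5.62 and 7.84 FPKM (log2 difference 0.97, SE 0.13, adjusted p = 0.00585). In both genes the groups did not overlap. Pycr1, the last enzyme of proline synthesis, measured 5.002 and 5.21, against 2.29, 2.12, 2.29 and 2.08 FPKM (log2 difference 0.94, SE 0.10, adjusted p = 0.00285), and the amino acid exchanger chain gene Slc7a5 (0.95) rose with its partner Slc3a2 (0.49). The stress gene Ddit4 (0.71) and the alanine transaminase gene Gpt2 (0.69) also rose. Serine synthesis did not pass, with Phgdh at 0.28 and Psat1 at 0.34, and neither did Atf5 (0.25) or Cebpg (0.24). The members that fell were Cebpb (-0.58) and the endoplasmic reticulum oxidase gene Ero1l (-0.50). Calls also depended on single libraries, those of Gpt2 without control replicate 3 (adjusted p = 0.0575), and of Ero1l, Asns, Chac1, Slc7a5 and Slc3a2 with either library of the pair left out (adjusted p 0.0512 to 0.121).

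An amino acid response element, searched as TGATGNAAN on both strands, lay in 6 of 27 promoters of the list (22.2%), against 2.3% of all tested genes 4.2% of those called higher and 1.4% of those called lower. It is shown in capitals for Asns (chr6:7693160-7693459, minus strand) and Chac1 (chr2:119350992-119351291, plus strand), RefSeq on GRCm38.p6.
Asns: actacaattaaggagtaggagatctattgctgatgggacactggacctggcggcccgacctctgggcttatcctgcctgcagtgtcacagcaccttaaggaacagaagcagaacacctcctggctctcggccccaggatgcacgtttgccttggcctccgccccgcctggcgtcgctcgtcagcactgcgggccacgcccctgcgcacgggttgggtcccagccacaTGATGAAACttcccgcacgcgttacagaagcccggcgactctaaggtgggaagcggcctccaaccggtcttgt
Chac1: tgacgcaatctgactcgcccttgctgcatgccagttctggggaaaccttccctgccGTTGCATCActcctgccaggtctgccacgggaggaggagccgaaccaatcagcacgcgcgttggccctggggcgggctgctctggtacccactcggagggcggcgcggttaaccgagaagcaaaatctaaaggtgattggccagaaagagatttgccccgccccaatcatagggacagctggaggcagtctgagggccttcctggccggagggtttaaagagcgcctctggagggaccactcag
The Asns match reads along the gene and the Chac1 match along the opposite strand.

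Other stress branches moved in both directions. Of 28 unfolded protein response genes 3 rose and 5 fell, 28.6% called against 18.8% of all genes tested. The chaperone genes Hsp90b1 (-0.38) and Calr (-0.21) fell, the degradation factor Edem1 rose (0.58), and the sensor target Hspa5 (-0.05) and Xbp1 (0.20) did not pass. Of 24 heat shock genes 4 rose and 6 fell, 41.7% called against the same 18.8%, with both directions among the chaperones. The small heat shock genes Hspb1 (59.9 and 58.5, against 34.4, 36.5, 36.5 and 33.8 FPKM; log2 difference 0.73, SE 0.06, adjusted p = 0.00149) and Cryab (4.402 and 3.71, against 1.67, 0.916, 0.354 and 0.989 FPKM; log2 difference 1.39, SE 0.21, adjusted p = 0.00856) and the inducible Hspa1a (0.44) and Hspa1b (0.57) rose, whereas the mitochondrial chaperonin Hspd1 (114 and 107, against 184, 183, 179 and 172 FPKM; log2 difference -0.70, SE 0.04, adjusted p = 0.000703), the cytosolic Hsp90aa1 (-0.39) and the co-chaperone Dnaja1 (-0.52) fell. Of 20 aminoacyl-tRNA synthetase genes 5 rose (25%, against 6.23% of all genes tested), among them Tars (0.52), Gars (0.32) and Cars (0.41), and 0 fell. The synthetase genes called higher numbered 1 without knockdown replicate 3, 0 without control replicate 3 and 3 without knockdown replicate 1, control replicate 1 or control replicate 2. Unfolded protein response genes called were 2 higher and 2 lower without knockdown replicate 3, and 1 higher and 0 lower without control replicate 3. Leaving out knockdown replicate 1 gave 3 lower. Heat shock genes called were 1 higher and 2 lower with either library of the pair left out. Calls lost with a library left out were those of Hsp90b1 without control replicate 3 (adjusted p = 0.0503), of Dnaja1 without knockdown replicate 3 (adjusted p = 0.0543), of Cryab, Hsp90aa1, Tars, Gars and Cars with either library of the pair left out (adjusted p 0.05 to 0.136), and of Calr without knockdown replicate 3, control replicate 3 or knockdown replicate 1 (adjusted p 0.052 to 0.151).

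Splicing factor genes fell in part. Of 60 tested genes for hnRNP proteins, SR proteins and related splicing factors 34 fell and 1, Mbnl1 (0.58), rose. That is 58.3% called, against 18.8% of all genes tested, with a median of -0.30 against -0.064 over all genes. This family was sensitive to scaling: 22 fell with equal medians and 28 with quantile normalization. The number called lower was 6 without knockdown replicate 3 and 10 without control replicate 3.

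Hnrnph1 (chr11:50376990-50386528, plus strand on GRCm38), encoding an RNA-binding protein that reads G-rich splice elements, measured 71.2 and 65.8 FPKM in the N2/S2-coded pair, against 144, 144, 132 and 132 FPKM in the HG-coded libraries, means of 68.5 ± 3.78 FPKM in the pair (SD, n = 2) and 138 ± 6.901 FPKM in the HG-coded libraries (SD, n = 4) (log2 difference -0.998, SE 0.04, adjusted p = 0.000371). The pair lay wholly below the HG-coded libraries, and each set was tight. Its paralogue Hnrnph3 measured 14.7 and 15.4, against 31.4, 27.6, 26.6 and 28.02 FPKM (log2 difference -0.87, SE 0.08, adjusted p = 0.00227), while Hnrnph2 (-0.14) and Hnrnpf (0.14) did not pass. Hnrnpa2b1, also described as a nuclear m6A reader, measured 100.2 and 100.2, against 155, 149, 149 and 147 FPKM (log2 difference -0.58, SE 0.04, adjusted p = 0.00121). Hnrnpl (-0.60), the paraspeckle protein gene Sfpq (-0.49), Ewsr1 (-0.51) and Srsf7 (-0.43) fell too, and Hnrnpk (-0.02) and Nono (-0.01) did not pass. Malat1, a nuclear non-coding RNA that gathers in splicing speckles, measured 262 and 286, against 345, 295, 454 and 443 FPKM (log2 difference -0.46, SE 0.10, adjusted p = 0.0247). When libraries were left out in turn, the call was lost for Mbnl1 without control replicate 3 (adjusted p = 0.0534), Srsf7 without knockdown replicate 3 (adjusted p = 0.0545), and Malat1 without control replicate 3, knockdown replicate 1, control replicate 1 or control replicate 2 (adjusted p 0.0564 to 0.186). Whether nuclear RNA was recovered to the same extent in all libraries was not tested.

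**Figure D5:**
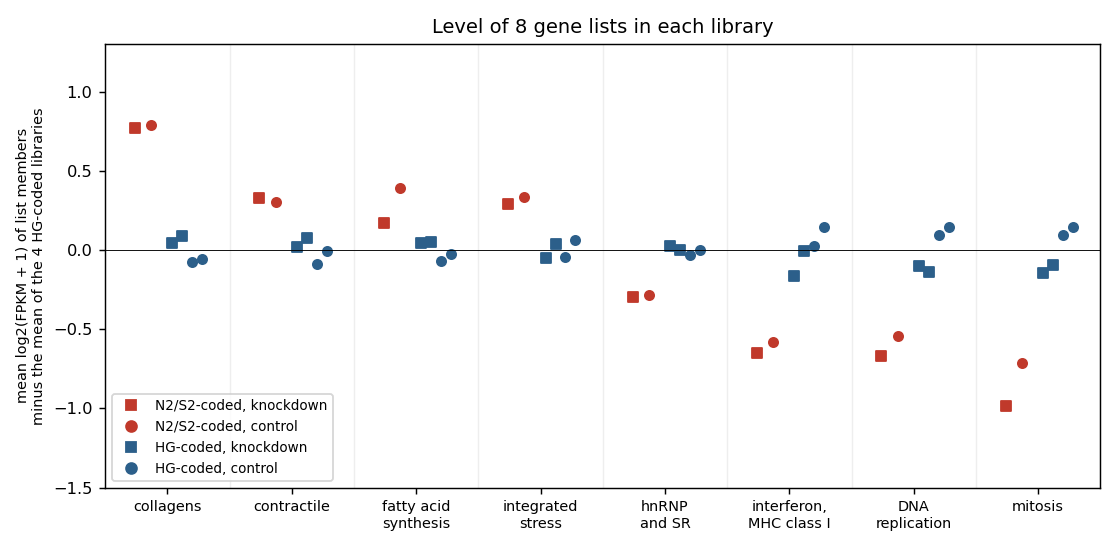
Mean log2(FPKM + 1) of the tested members of 8 gene lists in every library, minus the mean of the 4 HG-coded libraries; red marks the N2/S2-coded pair, blue the HG-coded libraries, squares knockdown and circles control. The collagen list stands at 0.77 and 0.79 in the pair and the mitosis list at -0.98 and -0.72, while the HG-coded libraries lie between -0.16 and 0.14 in all 8 lists. The fatty acid list includes Plin2, listed at 0 in some libraries.

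The core machinery was near the overall offset. Of 78 cytosolic ribosomal protein genes 3 rose and 2 fell (median 0.05), of 50 nuclear oxidative phosphorylation genes 0 rose and 2 fell (-0.03), and of 38 lysosome and autophagy genes 2 rose and 3 fell (-0.04), all below the 18.8% of genes called overall. The ribosomal counts were 0 higher and 0 lower with either library of the pair left out. The lysosome and autophagy counts were 0 higher and 1 lower without knockdown replicate 3, and 0 higher and 0 lower without control replicate 3. Ribosomal protein genes took 5.26% to 5.55% of FPKM in all 6 libraries. Integrin and focal adhesion genes had 2 rises and 4 falls of 22 (27.3% called), and YAP targets 4 rises and 2 falls of 15 (40% called). With the replicate block the integrin falls numbered 2 and the YAP target rises 1. Integrin genes called were 0 higher and 0 lower with either library of the pair left out. With any 1 HG-coded library left out 1 or 2 fell. YAP targets called were 1 higher and 0 lower with either library of the pair left out. Their rises also numbered 1 without knockdown replicate 1, knockdown replicate 2 or control replicate 1. Among the YAP targets, Cyr61 measured 20.7 and 19.6, against 9.15, 8.05, 9.99 and 11.3 FPKM (log2 difference 1.004, SE 0.11, adjusted p = 0.00335) and Ctgf measured 30.1 and 46, against 20.5, 19.7, 19.6 and 10.8 FPKM (log2 difference 1.08, SE 0.29, adjusted p = 0.0491), with control replicate 2 below the other HG-coded libraries. With a library left out, the threshold was missed by Ctgf with any library but control replicate 2 left out (adjusted p 0.0656 to 0.359).

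The offset of the pair was also compared between the siRNA arms, as the interaction of code form and knockdown. It passed in 4 genes (0.0497% of those tested; 374 at an unadjusted p under 0.05). Each of the 4 was low or listed at 0 in 1 or more libraries, and 0 genes passed among those above 0 in all 6 libraries and with knockdown replicate 1 or 2 left out. Plin2, encoding a lipid droplet coat protein, was listed at 0 in knockdown replicate 3 and at 6.48 FPKM in control replicate 3, at 8.89 and 10.7 FPKM in knockdown replicates 1 and 2 and at 0 in both control replicates 1 and 2. Gstp1, a glutathione transferase gene, was listed at 0 in knockdown replicate 3, against 24.9 FPKM in control replicate 3 and 28.7 to 33.7 FPKM in the other 4. Cd82, a tetraspanin gene, measured 0.622 and 6.398, against 7.45, 7.35, 0.6801 and 1.22 FPKM, and Slc10a3 0.0299 and 7.38, against 6.34, 6.75, 5.63 and 6.18 FPKM. Rps15 and Atp5e, used by every cell, are listed at 0 in 5 of the 6 libraries, so a listed 0 may be an estimate that failed, and these genes are given as values only.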

How the data were processed

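The authors deposited 1 table of FPKM per gene, with a column per library (unit per the file headers). Tools named in the submitters' processing notes are StringTie 1.2.2, HISAT2 2.0.4, cutadapt 1.17, R 2.10.0 and FastQC 0.11.7, whose roles are not stated there, and the build named is mm9. Of 9120 genes, 9110 matched GENCODE M21 by identifier and 8377 had exactly its span on GRCm38, so coordinates are given on GRCm38. Strand and the handling of overlapping or duplicated genes are not given in the sources used here. Among 858 single-transcript genes, at most 23.3% of the 150 lowest values per library were whole multiples of 1 read (tolerance 0.05), so counts and depth were not recovered.

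Genes with at least 1 FPKM in 3 or more libraries (8047) were fitted as log2(FPKM + 1) on code form and knockdown with limma 3.58.1 in R 4.3.3 (intensity trend, two-sided, residual degrees of freedom 3), without further scaling, and adjusted by Benjamini-Hochberg over all of them. A log2 difference is the N2/S2-coded pair minus the HG-coded libraries on this scale and understates low genes. For a single value, 2 libraries against 4 cannot give an exact permutation p below 0.0667, so none is quoted. The fit was run on simulated data with independent noise for each gene and library. Genes of these libraries do not vary independently, so the simulation cannot give their error rate. Members, lists and tests were chosen with earlier results of these data known. Lists are described by counts and medians, with no set test. The genes named are the 7 proposed as markers, the 12 largest called and non-overlapping differences in each direction (mean of at least 2 FPKM, no library at 0, predicted models left out), up to 6 members per list by smallest p, further members needed to complete a role, and Mettl3 (some that this rule names are not described here). Replicate numbers were checked as pairs: deviations from the group means correlated at 0.231, 0.196 and 0.558 for numbers 1, 2 and 3, so a fit with the replicate block was run. Alternatives varied the pseudocount, filter, scaling, covariate, variance model, block and the libraries left out. Promoter windows are from RefSeq (GRCm38.p6), matched by symbol for 6241 of the tested genes.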

Additional observations from a re-analysis of the deposited data

Results flagged for a closer look

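The offset of the pair differed between knockdown and control, by limma's interaction test, in 4 genes: the log2 offset in knockdown minus that in control was -6.33 for Plin2, -4.78 for Gstp1, -4.31 for Cd82 and -3.15 for Slc10a3. In each, 1 or more libraries were listed at or near 0.

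Among the 4 HG-coded libraries, 1 library stood far from the other 3 in 5 of 192 genes under the naming rule; chance flags about 1 group in 20. Knockdown replicate 2 held 5.79 FPKM of Cpt1a, below the others, and 51.4 FPKM of Col6a2, above them. Control replicate 2 held 761 FPKM of Thbs1, above the others, and 10.8 FPKM of Ctgf, below them, and control replicate 1 held 20.9 FPKM of Nid2, below them.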

How the results depend on the processing

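With a pseudocount of 0.1 or 0.5, another filter, no knockdown covariate, other variance models or array weights, between 1238 and 1609 genes were called, and none of the main calls changed sign; 1 did under quantile normalization. Genes called were 1513 in all, 501 higher and 1012 lower; leaving out 1 library gave 343 to 1204, 112 to 381 and 230 to 823, lowest without a replicate 3 library, where 1 library is left on a side. Within knockdown libraries they were 225, 88 and 137, and within control libraries 0, 0 and 0. Same-numbered libraries deviated together, but crossed ones did as much (0.257 for knockdown 1 with control 2, 0.226 for knockdown 2 with control 1), so the pairing shows mainly that number 3 stands apart; with the replicate block 1197 genes were called and of the list counts of 4 or more those of G1, glycolysis, integrin and YAP target genes moved by over 1.5 times. With a filter of 5 FPKM 8 replication and 5 interferon genes were called, fewer being tested. The count of genes with groups that do not overlap was 2295 of 4865 past a filter of 5 FPKM. The interaction was called in 12 genes with no filter, 2 at 5 FPKM, 0 among genes above 0 everywhere, and 0 without knockdown replicate 1 or 2; fewer genes or libraries were then fitted in the last 3. Mettl3 (-0.02; -0.07 to 0.04 with 1 library left out) changed sign with equal medians (0.06), quantile normalization (0.07), within knockdown libraries (0.04), without control replicate 3 (0.04) and without control replicate 2 (0.01); the cause was not tested. Of the 185 called genes under the naming rule, 85 were called whichever library was left out, 75 lost the call only without a replicate 3 library and 25 also without another. With 2 libraries against 4 and unknown depth, small differences in low genes could not be resolved.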

Other observations

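Glycolysis and hypoxia genes were lower in part: of 34 tested 12 fell and 2 rose, 41.2% called against 18.8% of all genes tested. The median log2 difference was -0.13, against -0.064 over all genes. Hk2, the inducible hexokinase, measured 5.801 and 8.14 FPKM in the N2/S2-coded pair, against 14.7, 11.2, 12.4 and 15.3 FPKM in the HG-coded libraries (log2 difference -0.86, SE 0.15, adjusted p = 0.01198). The hypoxia factor gene Hif1a (-0.51), the glycolytic Pgk1 (-0.34) and the glucose carrier gene Slc2a1 (-0.28) fell, while the aldolases Aldoa (0.23) and Aldoc (0.57) rose; Ldha (0.13) and Gapdh (0.08) did not pass. The count of falls was 5 with equal medians, 7 with quantile normalization or with the replicate block and 5 with no variance trend. With 1 library left out it was 1 without control replicate 3, 3 without knockdown replicate 3, 4 without knockdown replicate 1 and 6 without knockdown replicate 2 or control replicate 2. No longer called with a library left out were Hif1a without control replicate 3 (adjusted p = 0.0677), Hk2 with either library of the pair left out (adjusted p 0.0611 to 0.121), Slc2a1 without knockdown replicate 3, control replicate 3 or knockdown replicate 2 (adjusted p 0.0509 to 0.13), Aldoa without control replicate 3, knockdown replicate 1, control replicate 1 or control replicate 2 (adjusted p 0.0643 to 0.216), and Aldoc without control replicate 3, knockdown replicate 1, knockdown replicate 2 or control replicate 2 (adjusted p 0.0512 to 0.219).

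Of 17 p53 targets 4 rose and 0 fell (median 0.29), a share of 23.5% against 6.23% of all genes tested called higher. The rises numbered 0 without knockdown replicate 3, 0 without control replicate 3 and 2 without knockdown replicate 1, control replicate 1 or control replicate 2. Bbc3, encoding the pro-apoptotic PUMA, measured 18.6 and 22, against 10.7, 13.8, 13.01 and 12.3 FPKM (log2 difference 0.66, SE 0.11, adjusted p = 0.0115). Of 20 immediate early genes 3 rose and 4 fell, 35% called against 18.8% of all genes tested. Immediate early genes called were 3 higher and 4 lower without knockdown replicate 3, and 2 higher and 1 lower without control replicate 3. Egr1 measured 4.62 and 6.56, against 7.24, 7.39, 12.2 and 13.1 FPKM (log2 difference -0.71, SE 0.09, adjusted p = 0.00574) and Dusp6, a phosphatase induced by ERK signalling, measured 2.67 and 2.76, against 5.05, 4.66, 8.98 and 10.5 FPKM (log2 difference -1.09, SE 0.19, adjusted p = 0.0133), whereas Klf4 rose at 160.3 and 172, against 107, 101, 92.9 and 104 FPKM (log2 difference 0.71, SE 0.07, adjusted p = 0.00272). Myc measured 7.46 and 1.08, against 13.8, 8.41, 7.02 and 10.97 FPKM and did not pass (log2 difference -1.36, SE 0.42, adjusted p = 0.0704). Of 23 genes of the m6A machinery 6 fell and 1, Rbm15b (0.43), rose, 30.4% called against 18.8% of all genes tested. Igf2bp2, an m6A reader, measured 4.97 and 5.35, against 7.19, 8.02, 8.35 and 8.58 FPKM (log2 difference -0.55, SE 0.08, adjusted p = 0.00795), and the writers Mettl14 (-0.01) and Wtap (-0.28) did not pass. The m6A falls numbered 1 without knockdown replicate 3, 1 without control replicate 3 and 3 without knockdown replicate 1 or 2, with equal medians or with quantile normalization. Calls that did not hold without a given library were those of Egr1 and Dusp6 without control replicate 3 (adjusted p 0.0611 to 0.0692), and of Bbc3, Rbm15b and Igf2bp2 with either library of the pair left out (adjusted p 0.0712 to 0.121). The remaining genes with large falls were Otulin, a deubiquitinase gene (3.83 and 4.94, against 15.1, 15.7, 13.8 and 13.9 FPKM), Akr1b10, an aldo-keto reductase gene (8.25 and 8.16, against 25.7, 24.1, 23.4 and 25.7 FPKM), St3gal4, a sialyltransferase gene (23.3 and 24.3, against 65.96, 60.8, 62.96 and 72.1 FPKM), C1rb, a complement protease gene (16.2 and 15.8, against 37.4, 37.96, 40.9 and 43.3 FPKM), and Suv39h1, a histone H3 lysine methyltransferase gene (4.26 and 4.09, against 12.7, 12.1, 11.2 and 9.67 FPKM). The remaining large rise was in Tnfsfm13, at 4.93 and 8.97, against 0.911, 1.93, 1.24 and 1.27 FPKM. Calls also depended on single libraries, those of Tnfsfm13 without control replicate 3 (adjusted p = 0.0692).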
